A study of Mus musculus with 64 samples.

Results

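The genes described here encode the subunits of the mouse proteasome together with its activators and the chaperones that carry the Psm names. Members were the genes of the array whose symbol is Psma, Psmb, Psmc, Psmd, Psme or Psmf followed by a digit, within the rule applied here. The array held 39 such genes of 16593 named genes in all, read by 59 of its 25697 probes. Of these, 34 were counted as constitutive, and 5 (Psmb8, Psmb9, Psmb10, Psme1 and Psme2) as immune. The choice went by gene name, and earlier results of these data were known when it was made. 3 subunits on the lists used here, Psma8, Psmd3 and Psmf1, had no probe with their name, and 16 of the 39 genes had more than 1 probe.

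The proteasome is the protease that degrades ubiquitin-tagged proteins in the cytosol and nucleus. Its core is a barrel of stacked rings: outer alpha rings that gate the entrance, and inner beta rings that hold the cutting sites of Psmb5, Psmb6 and Psmb7. A regulatory cap, with a base of ATPases and a lid that takes off ubiquitin, sits on the ends of the barrel. In cells of the immune system, and in other cells exposed to interferon, Psmb8, Psmb9 and Psmb10 are built in instead of Psmb5, Psmb6 and Psmb7, and Psme1 and Psme2 form the PA28 cap. The peptides that leave such immunoproteasomes are loaded on MHC class I molecules, in the thymus as elsewhere.

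The study profiled RNA from whole thymus, spleen, liver and brain of male mice aged 21 weeks, on 64 Illumina bead arrays. Arrays of 1 group with the same replicate number were taken as 4 organs of 1 mouse, which gives 16 mice. The titles give the mutants replicate numbers only, and the wild types a letter too. 4 mice were Hmgn2-/- and are set against 4 wild-type mice with the strain label C57BL/6. A further 4 mice lacked both family members (Hmgn1-/-n2-/-, the double knockout) and are set against 4 wild types with the strain label C57BL/6J. Hmgn1 and Hmgn2 encode small nuclear proteins that bind nucleosomes. Each array is 1 organ of 1 mouse, so the 4 replicates of a group are separate animals. The labels name neither the cells nor the promoter of a transgene, and they give no slide or scan date, so a batch of either kind could not be examined. Because whole organs were used, fewer cells of a type and less RNA per cell cannot be told apart.

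The arrays carried between 9550 and 13411 detected probes, and the 95th percentile of their raw signal lay between 678.1 and 1547 intensity units. The organs matched their labels by markers: Cd3e averaged 11.93 in wild-type thymi, Cd79b 12.63 in spleens, Apoa1 13.87 in livers and Syp 12.31 in brains, on a normalized log2 scale. Hmgn2 was low in both mutants in thymus (means 5.47 in Hmgn2-/- and 5.92 in Hmgn1-/-n2-/- mice, against 12.88 and 12.80 in their wild types), liver and brain. In spleen 2 libraries went against their label. Replicate 1 labelled Hmgn1-/-n2-/- had an Hmgn2 level of 12.13, and replicate 4 of the C57BL/6J wild types one of 6.33. The Hmgn1 probe gave 11.66 to 11.82 in Hmgn1-/-n2-/- thymi, against 12.08 to 12.23 in their wild types. Hmgn2-/- thymi gave 11.63 to 11.78, against 11.86 to 12.17 in theirs. Hmgn1-/-n2-/- livers, at 10.67 to 10.77, lay within the range of their wild types, 10.56 to 10.90. Where that probe lies relative to the deleted part is not given, so it checks nothing. 7 arrays stood apart from the rest of their organ by their correlation with the other arrays: 2 in liver (Hmgn2-/- replicates 2 and 4), 2 in spleen (Hmgn2-/- replicate 3 and C57BL/6J wild-type replicate 3), and 3 in brain (Hmgn2-/- replicate 1, Hmgn1-/-n2-/- replicate 1 and C57BL/6 wild-type replicate 2). None was in thymus.

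Psmb8 and Psmb9 lie close together on chromosome 17, within the MHC, and their promoters are shown with that of Psmb5, whose place in the barrel Psmb8 takes. Psmb8 covers bases 34198195 to 34201454 and Psmb9 bases 34182030 to 34187330, with Psmb5 on chromosome 14 at bases 54614120 to 54617995. The sequences are the 250 bases before each gene's start, from RefSeq on the mouse build GRCm38.p6, written 5′ to 3′ on the strand of the gene. They are chr17:34197945-34198194 on the plus strand for Psmb8, chr17:34187331-34187580 on the minus strand for Psmb9, and chr14:54617996-54618245 on the minus strand for Psmb5. Capitals mark a match to TGACNNNGC, the letters bound by NRF1, which drives constitutive subunit genes; of the 3 sequences Psmb5 has one.
Psmb8: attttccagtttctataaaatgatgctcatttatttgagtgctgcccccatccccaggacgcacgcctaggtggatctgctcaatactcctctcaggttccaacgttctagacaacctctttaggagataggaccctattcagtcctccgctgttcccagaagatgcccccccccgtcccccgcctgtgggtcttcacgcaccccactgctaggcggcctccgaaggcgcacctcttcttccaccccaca
Psmb9: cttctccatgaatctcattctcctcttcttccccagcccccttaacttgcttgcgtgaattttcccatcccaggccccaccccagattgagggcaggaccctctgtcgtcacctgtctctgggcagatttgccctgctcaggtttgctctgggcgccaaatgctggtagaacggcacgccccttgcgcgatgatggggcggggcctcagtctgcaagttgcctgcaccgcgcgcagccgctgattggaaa
Psmb5: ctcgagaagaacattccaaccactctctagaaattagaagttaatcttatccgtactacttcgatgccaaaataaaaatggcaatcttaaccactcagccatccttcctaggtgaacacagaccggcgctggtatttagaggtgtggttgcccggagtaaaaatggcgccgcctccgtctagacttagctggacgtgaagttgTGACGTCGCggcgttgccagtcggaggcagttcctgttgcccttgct
Both strands were searched in the 34 members with a RefSeq promoter and in 32851 promoters of all genes. TGACNNNGC was found in 5 members, Psmb5, Psmb6, Psmc6, Psmd12 and Psmd9, and in 10.2% of all promoters. CCAAT was in 13 members and in 33.8% of all promoters. The Psmb9 window held CCAAT, on the opposite strand. The capitalized match overlaps no CCAAT. A match describes the letters of the window and nothing more.

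Between organs of wild-type mice, immune members differed by up to 5.64 on the log2 scale (Psmb9) and constitutive members by up to 2.27 (Psmb1). The first question was how the wild types of the 4 organs compare, over 8 mice each (both strain labels). Values are log2 intensities normalized over all 64 arrays, and the tests are limma fits over 11366 genes with the mouse as a block. 37 members were tested. A gene is said to be higher or lower where its p-value, adjusted over all 11366 genes, was under 0.05. Organs differ in most genes, so the share of all genes past the test is given with each pair.

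Psmb9, which replaces Psmb6, had the widest range. In wild-type thymi its lowest, median and highest levels were 10.47, 10.63 and 10.72. In spleens they were 10.16, 11.00 and 11.17. In livers they were 7.91, 8.34 and 8.67, and in brains 4.84, 5.29 and 5.68. Thymus and spleen overlapped, while every liver lay below both and every brain below every liver. Psmb9 was higher in thymus than in brain by 5.33 ± 0.11 (SE; limma, adjusted p = 3.47e-44), in spleen than in brain by 5.64 (limma, adjusted p = 2.22e-45) and in liver than in brain by 3.01 ± 0.11 (limma, adjusted p = 4.74e-32). Thymus was lower than spleen by a log2 difference of -0.30 (limma, adjusted p = 0.0157). That call was lost for 3 of the 4 replicate numbers when each was left out in turn, and the adjusted p reached 0.173 over all the alternatives tried (limma).

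Psmb8, which replaces Psmb5, was detected on 0 of the 8 wild-type brain arrays. Its levels ran from 8.11 to 8.61 in thymi, from 7.88 to 8.38 in spleens, from 5.92 to 6.41 in livers and from 4.57 to 4.88 in brains. The probe was not well above background in brain. Psmb8 entered the fit through the other organs and had to differ from brain, so no test is given for these pairs. The differences are bounds under the background correction used. Psmb8 was at least 11.9-fold higher in thymus, at least 9.33-fold in spleen and at least 2.52-fold in liver than in brain. These bounds rest on the background correction: with no background subtraction the log2 differences from brain for Psmb8 were 1.92 in thymus, 1.65 in spleen and 0.50 in liver, which are smaller than the bounds (3.57, 3.22 and 1.33 on the log2 scale). Thymus exceeded spleen by 0.35 and spleen exceeded liver by 1.89.

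Psmb10, which replaces Psmb7, was present in every organ. Its median was 10.77 in thymi (10.57 to 11.04), 10.27 in spleens (9.99 to 10.72), 9.51 in livers (9.15 to 9.69) and 9.16 in brains (8.70 to 9.30). Each organ exceeded the next in that order: thymus over spleen by 0.46, spleen over liver by 0.85, and liver over brain by 0.42 ± 0.11 (limma, adjusted p = 0.000678). The ranges of neighbouring organs overlapped except between spleen and liver.

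The subunits of the PA28 cap followed different orders. Psme1, the alpha subunit, was highest in spleens, with a median of 11.63 (10.30 to 11.82), before thymi at 10.88 (10.51 to 11.07), livers at 10.25 (10.16 to 10.30) and brains at 8.63 (7.92 to 8.86). On its second probe thymi, at 10.29 (10.23 to 10.47), and spleens, at 10.28 (9.65 to 10.51), overlapped. Psme2, the beta subunit, was highest in livers at 8.13 (7.91 to 8.27), against 7.45 in thymi (7.28 to 7.80), 7.52 in spleens (6.27 to 7.87) and 6.46 in brains (5.70 to 6.76). Psme2 was lower in thymus than in liver by a log2 difference of -0.65 and lower in spleen than in liver by one of -0.74, the opposite direction to Psme1 (0.62 and 1.27). Thymus and spleen did not pass the test for Psme2 (0.10; limma, adjusted p = 0.51). Centring each array on its median moved the Psme1 difference between thymus and liver to -0.14, with a shift of all genes. Relative to the median of all genes it was 0.20 there, and 0.53 before.

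**Figure D1:**
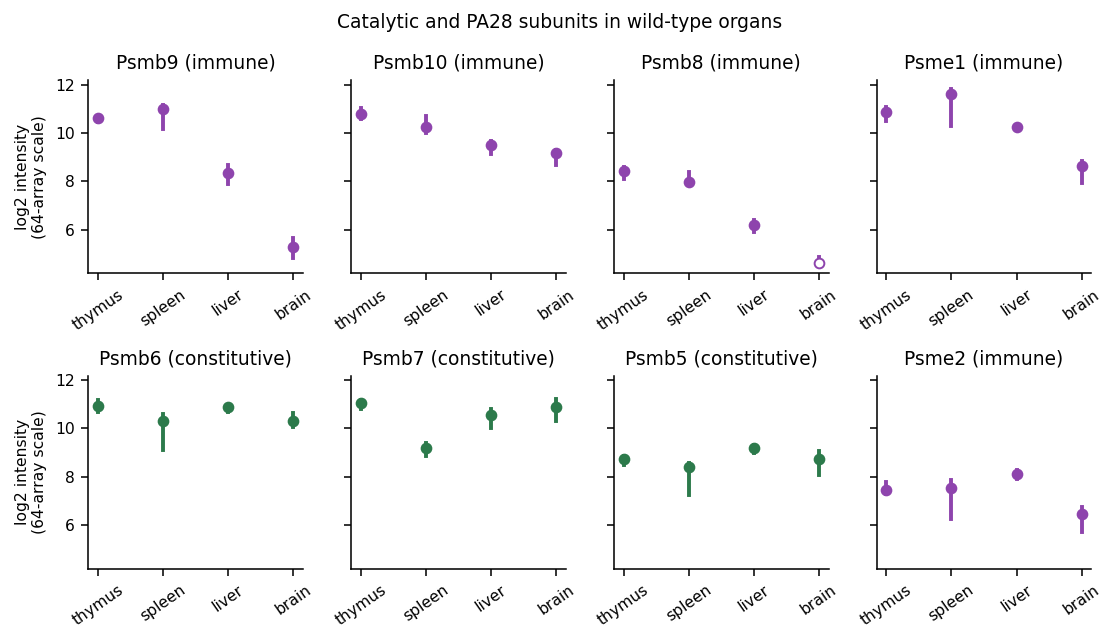
Normalized log2 intensity (vertical axis) of 8 proteasome genes in wild-type thymus, spleen, liver and brain. The point is the median of 8 arrays, the line runs from the lowest to the highest array, and an open point marks 0 of 8 arrays detected. Psmb9 spans 5.29 in brain to 11.00 in spleen, while Psmb6 stays between 10.31 and 10.92.

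The constitutive subunits that Psmb8, Psmb9 and Psmb10 replace had other orders. Psmb6, the caspase-like site, had medians of 10.92 in thymi, 10.31 in spleens, 10.87 in livers and 10.31 in brains. Psmb5, the chymotrypsin-like site, had medians of 8.74 in thymi, 8.39 in spleens, 9.19 in livers and 8.73 in brains, so livers were highest. Psmb7, the trypsin-like site, had medians of 11.06 in thymi, 9.18 in spleens, 10.56 in livers and 10.88 in brains. Every wild-type spleen, at 8.86 to 9.40, lay below every wild-type array of the other organs for this Psmb7 probe. A second probe kept the spleens below all others (8.88 to 9.52). On the third, spleens (7.17 to 8.16) overlapped brains (7.98 to 8.47), and every thymus lay below every liver (means 8.60 and 9.02). On the main probe spleen was lower than liver by a log2 difference of -1.32 and lower than brain by one of -1.65, and thymus was higher than spleen by 1.89.

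Against brain, the 4 immune members detected there (Psmb9, Psmb10, Psme1 and Psme2) were all higher in thymus (median log2 difference 2.00), in spleen (2.10) and in liver (1.68), and each was so under each scaling tried. Of all 11366 genes, 43.8% were higher in thymus, 43.2% in spleen and 38.3% in liver, with medians of 0.095, 0.049 and 0.006. Of the 32 constitutive members tested, 24 were higher and 3 lower in thymus than in brain (median 0.44; 35.9% of all genes were lower). In spleen against brain 12 were higher and 10 lower (median 0.02; 38.2% of all genes lower), and in liver against brain 15 were higher and 6 lower (median 0.26; 40.5% of all genes lower, 78.8% either way). With each array centred on its own median, these counts became 13 higher and 5 lower in thymus, 7 and 18 in spleen, and 26 and 1 in liver. The 32 include Psmc6, which was detected on 0 of 8 wild-type brain arrays. Over the 31 detected in both organs, before that centring, 23 were higher and 3 lower in thymus (median 0.44). The counts were 12 and 10 in spleen (median -0.01), and 14 and 6 in liver (median 0.20).

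Between the lymphoid organs and liver, the immune members were 4 higher and 1 lower (Psme2) both in thymus (median 1.31) and in spleen (1.27). Of the constitutive members, 6 were higher and 17 lower in spleen than in liver (median -0.31), and 1 and 29 with that centring. In thymus against liver 15 were higher and 6 lower (median 0.20), a direction that turned to 1 higher and 26 lower (median -0.53) under the same centring. The shares of all genes higher and lower were 43.3% and 32.2% for thymus against liver, and 44.2% and 32% for spleen against liver. Psmc6 was also detected on 0 of 8 wild-type liver arrays. Without it the constitutive counts before centring were the same, with medians of -0.38 in spleen and 0.21 in thymus against liver.

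Centring on the array median moved all genes, not the members alone. The median difference over all genes became -0.34 for thymus against liver, -0.30 for spleen against liver, -0.28 for thymus against brain and -0.31 for spleen against brain. The split of all genes became 3786 higher and 6051 lower for thymus against liver (4920 and 3659 before), 3932 and 5904 for spleen against liver (5028 and 3641), 3719 and 5814 for thymus against brain (4976 and 4084), and 3744 and 5971 for spleen against brain (4907 and 4339). Relative to the median of all genes, the constitutive median stood at -0.19 for thymus against liver under that scaling, and at 0.12 before. In spleen against brain it was -0.01 and -0.03, and in liver against brain 0.61 and 0.25. The immune median relative to all genes was 1.09 in thymus against liver and 0.70 in spleen against liver under that scaling.

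Between thymus and spleen the immune members were 2 higher (Psmb8, Psmb10) and 2 lower (Psmb9, Psme1). There 24 of the 32 constitutive members were higher in thymus and 1 was lower (median 0.48), against 32.9% and 29.2% of all genes (median 0.030). That median was between 0.42 and 0.48 under every scaling tried. Without the 2 spleen libraries whose Hmgn2 level went against the label, 29 members passed between thymus and spleen, against 29 with them, 30 against 28 between spleen and liver, and 25 against 27 between spleen and brain.

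By subcomplex, all 7 constitutive beta subunits were higher in thymus (median 0.70), as were 4 of 5 alpha subunits, 7 of 9 members of the base and 3 of 3 chaperones of base assembly, Psmd5, Psmd9 and Psmd10. Of 6 lid members 3 were higher. Psmb1, a beta subunit without a cutting site, differed most: its levels were 10.52 to 10.85 in thymi, 7.46 to 9.53 in spleens, 10.36 to 10.54 in livers and 9.74 to 10.32 in brains. The spleens lay below all other organs and were also the most spread. Psmb1 was higher in thymus than in spleen by 2.27, and lower in spleen than in liver by a log2 difference of -2.02. Psme3, the nuclear cap PA28 gamma, was the 1 constitutive member lower in thymus. It had 8.34 to 8.96 in thymi against 9.55 to 10.60 in spleens (log2 difference -1.32).

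Other constitutive members led single pairs of organs. Psmd1, the large scaffold of the base, averaged 6.33 in thymi against 7.47 in livers, a difference of -1.13. In liver against brain the widest constitutive differences were those of Psmd11 and Psme4, at 1.35 each, and of Psmd6, at 1.18. Psmd11 and Psmd6 belong to the lid, and Psme4 is the cap PA200. Psmb3 (1.08), Psma4 (0.84) and Psmb2 (0.84) led thymus against brain.

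Genes of peptide loading and of the interferon response were also higher than in brain. Genes that no wild-type brain array detected entered the fit through other organs and had to differ. Only genes detected on at least 1 wild-type array of both organs are therefore counted. A gene detected on few brain arrays can still lie near background there. Of 11 peptide-loading genes tested, 7 were detected in brain, and 6 of them were higher in thymus (median 2.93), 6 in spleen (3.06) and 7 in liver (1.73). Of 15 interferon genes 11 were detected in brain, and all 11 were higher in thymus, in spleen and in liver (medians 2.31, 3.24 and 1.98). Of 10 general leukocyte markers 6 were detected in brain: all 6 were higher in thymus (median 3.72) and in spleen (5.37), while 4 were higher and 2 lower in liver (0.56). Over all genes detected in both organs, 46.4%, 44.7% and 45.8% were higher in thymus, spleen and liver than in brain (medians 0.15, 0.08 and 0.13). Ptprc, the leukocyte surface phosphatase CD45, averaged 7.55 in thymus and 8.28 in spleen, and was detected on 0 of 8 liver and 0 of 8 brain arrays. Tap1, the peptide transporter encoded beside Psmb9, averaged 7.71 in thymi, 8.06 in spleens and 5.92 in livers, and was detected on 0 of 8 brain arrays. The part of cell make-up in the organ differences was not tested.

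Several proteasome transcripts were lower in Hmgn2-/- thymi. None passed the test in Hmgn1-/-n2-/- thymi, and none passed in the test of the difference between the mutants, given below. In Hmgn2-/- thymi against C57BL/6 wild-type thymi, 10 of 37 members tested fell and 1 rose (limma, each adjusted p under 0.05 over 9041 genes). In that comparison 15.5% of all genes passed the test, 8.32% lower and 7.22% higher. The 37 members had a median log2 difference of -0.23, against 0.020 over all genes. The 32 constitutive members gave 7 lower and 1 higher (median -0.18), and the 5 immune members gave 3 lower (median -0.33). Values from here on were normalized within the organ, and each list of 4 runs in replicate order.

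The beta ring held the largest share of calls among the constitutive parts: 4 of its 7 members fell, and the median of the 7 was -0.36. Psmb7, which carries the trypsin-like site, was 10.40, 10.47, 10.36 and 10.69 in Hmgn2-/- thymi, against 11.14, 11.00, 10.96 and 11.07 in wild types. Every mutant array lay below every wild-type array, and the difference was -0.56 ± 0.11 (SE; limma, adjusted p = 0.00348). It passed the test under all 12 other settings and after leaving out each of the 8 arrays in turn. The other 2 Psmb7 probes gave -0.28 and -0.17 (limma, adjusted p = 0.14 and 0.472).

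Psmb3, a structural beta subunit, was 10.89, 11.15, 10.76 and 10.99 in Hmgn2-/- thymi, against 11.44, 11.36, 11.42 and 11.53 in wild types. The groups did not overlap, and Psmb3 fell by 0.49 ± 0.09 (limma, adjusted p = 0.00178). Psmb2, also structural, was 10.89, 10.97, 10.58 and 10.68, against 11.20, 11.00, 11.17 and 11.19 in wild types, where replicate 2 lay well below the other 3 and just above the highest mutant. It fell by 0.36 ± 0.09 (limma, adjusted p = 0.0147), and its second probe by 0.34 (limma, adjusted p = 0.0379). Psmb1 was 10.55, 10.55, 9.98 and 10.26, against 10.75, 10.85, 10.79 and 10.58 in wild types, and fell by 0.41 ± 0.12 (limma, adjusted p = 0.0272). Leaving out 1 array lost the Psmb1 call in 4 of 8 fits (limma, adjusted p up to 0.139 over all alternatives). That of Psmb2 was lost in 1 of 8.

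The other 3 beta subunits had negative differences that missed the threshold. Psmb5, the chymotrypsin-like site, was 8.73, 8.75, 8.27 and 8.33 in Hmgn2-/- thymi, against 8.77, 8.93, 8.80 and 9.02 in wild types. Its arrays did not overlap, but the difference of -0.36 ± 0.16 had an adjusted p of 0.136 (limma). Psmb6 had -0.28 ± 0.10 (limma, adjusted p = 0.0777) and Psmb4 -0.23 ± 0.09 (limma, adjusted p = 0.0941). All 7 members of the ring had an unadjusted p under 0.05.

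In the alpha ring 2 of 5 tested members fell, with a median of -0.23. Psma7 was 10.17, 10.30, 10.15 and 10.00 in Hmgn2-/- thymi, against 10.65, 10.52, 10.47 and 10.63 in wild types. The groups were apart, and Psma7 fell by 0.41 ± 0.09 (limma, adjusted p = 0.00675), with its second probe falling by 0.47 (limma, adjusted p = 0.00417). Psma4 was 10.95, 10.83, 10.59 and 11.17, against 11.21, 11.24, 11.23 and 11.13 in wild types, so mutant replicate 4 lay inside the wild-type range. It fell by 0.32 ± 0.10 (limma, adjusted p = 0.0437), a call lost in 6 of 8 fits that left out 1 array. Psma2, Psma3 and Psma5 had differences between -0.12 and -0.23.

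Among the immune members Psme2 had the largest difference. It was 7.06, 7.27, 7.16 and 6.98 in Hmgn2-/- thymi, against 7.48, 7.62, 7.54 and 8.00 in wild types. All mutants lay below all wild types, and Psme2 fell by 0.54 ± 0.13 (limma, adjusted p = 0.011). Its partner Psme1 was 10.67, 10.54, 10.19 and 10.14, against 10.58, 10.78, 10.92 and 10.81 in wild types. Replicate 1 of the mutants lay inside the wild-type range, and Psme1 fell by 0.39 ± 0.12 (limma, adjusted p = 0.0363). The call was lost in 5 of 8 fits without 1 array (limma, adjusted p up to 0.158 over all alternatives).

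Psmb9 was 10.40, 10.55, 10.24 and 10.33 in Hmgn2-/- thymi, against 10.54, 10.62, 10.69 and 10.76 in wild types. The groups met at 1 mutant array, and Psmb9 fell by 0.27 ± 0.09 (limma, adjusted p = 0.0386), a call lost in 4 of 8 fits without 1 array (limma, adjusted p up to 0.184 over all alternatives). Psmb8 and Psmb10 did not pass the test. Psmb8 was 8.37, 8.67, 8.30 and 8.38, against 8.55, 8.70, 8.80 and 8.66 in wild types, a difference of -0.25 ± 0.13 (limma, adjusted p = 0.202). Psmb10 was 11.06, 10.78, 10.25 and 9.83, against 10.63, 10.82, 10.76 and 11.03 in wild types, a difference of -0.33 ± 0.19 (limma, adjusted p = 0.244). The mutant arrays of Psmb10 spread more widely than the wild types, on both sides of them.

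**Figure D2:**
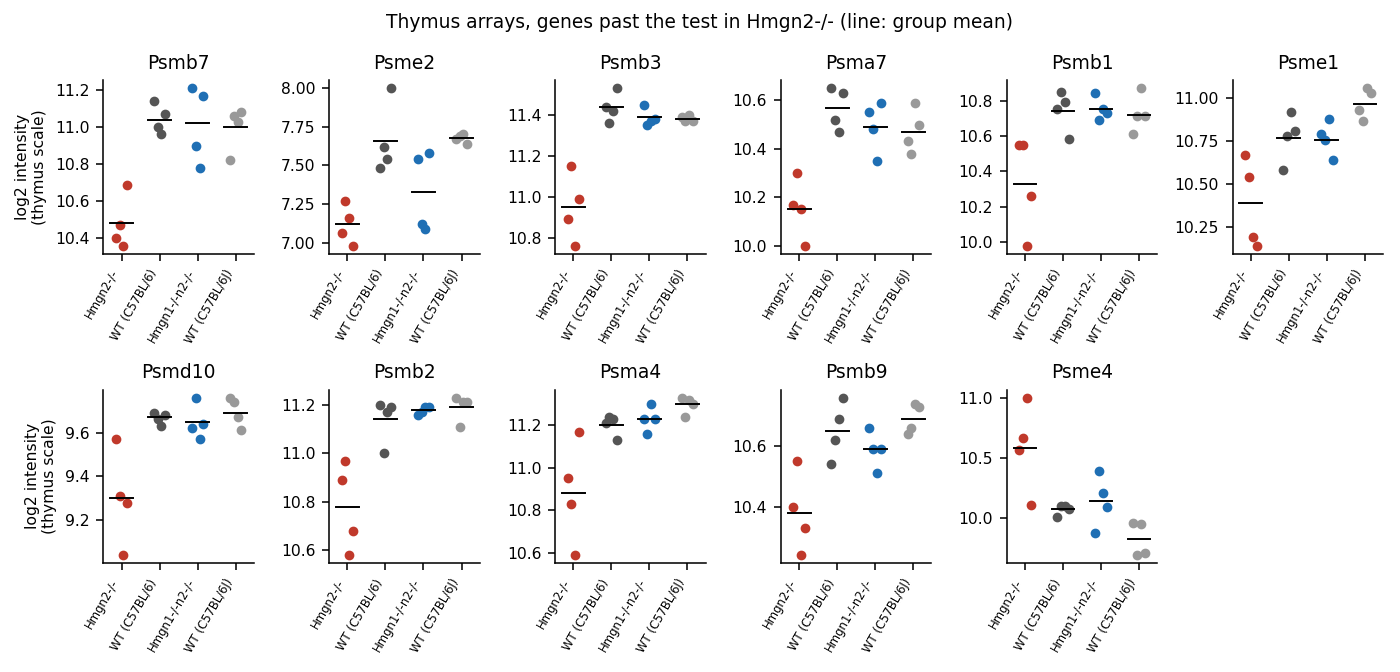
Normalized log2 intensity (vertical axis) of the 11 proteasome genes past the test in Hmgn2-/- thymus, on each of 4 arrays in the Hmgn2-/-, C57BL/6 wild-type, Hmgn1-/-n2-/- and C57BL/6J wild-type groups. Points are arrays and lines are group means. Psmb7 reaches at most 10.69 in Hmgn2-/- thymi against at least 10.96 in their wild types, while Psme4 alone is higher in the mutants.

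The regulatory cap gave few calls. None of 9 members of the base and none of 6 members of the lid passed the test, with medians of -0.09 and 0.00. Psmc3 and Psmc5, ATPases of the base, each had -0.27 (limma, adjusted p = 0.0806 and 0.106), and Psmc1, another ATPase, -0.00. Psmd14, the deubiquitinase of the lid, had 0.04 ± 0.14, and Psmd7, its partner, 0.02 ± 0.08. At an unadjusted p under 0.05, 14 constitutive and 3 immune members passed in all, among 2813 of 9041 genes.

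Psmd10, the chaperone gankyrin, helps to assemble the base and is not part of the finished cap. It was 9.57, 9.31, 9.04 and 9.28 in Hmgn2-/- thymi, against 9.69, 9.66, 9.63 and 9.68 in wild types. It fell by 0.37 ± 0.10 with no overlap (limma, adjusted p = 0.0203), and its other 2 probes fell by 0.67 and 0.49 (limma, adjusted p = 0.00138 and 0.0138). The call on the main probe was lost in 2 of 8 fits without 1 array. Psmd9, a further chaperone, had -0.36 (limma, adjusted p = 0.123).

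The single member that rose was Psme4, the cap PA200. It was 10.56, 10.66, 11.00 and 10.11 in Hmgn2-/- thymi, against 10.01, 10.10, 10.10 and 10.07 in wild types, with replicate 4 just above the wild types. The difference was 0.51 ± 0.15 (limma, adjusted p = 0.0315). The call was lost in 6 of 8 fits without 1 array, and the second Psme4 probe gave -0.04 (limma, adjusted p = 0.898). Psme3 had 0.30 ± 0.17 (limma, adjusted p = 0.252).

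**Figure D3:**
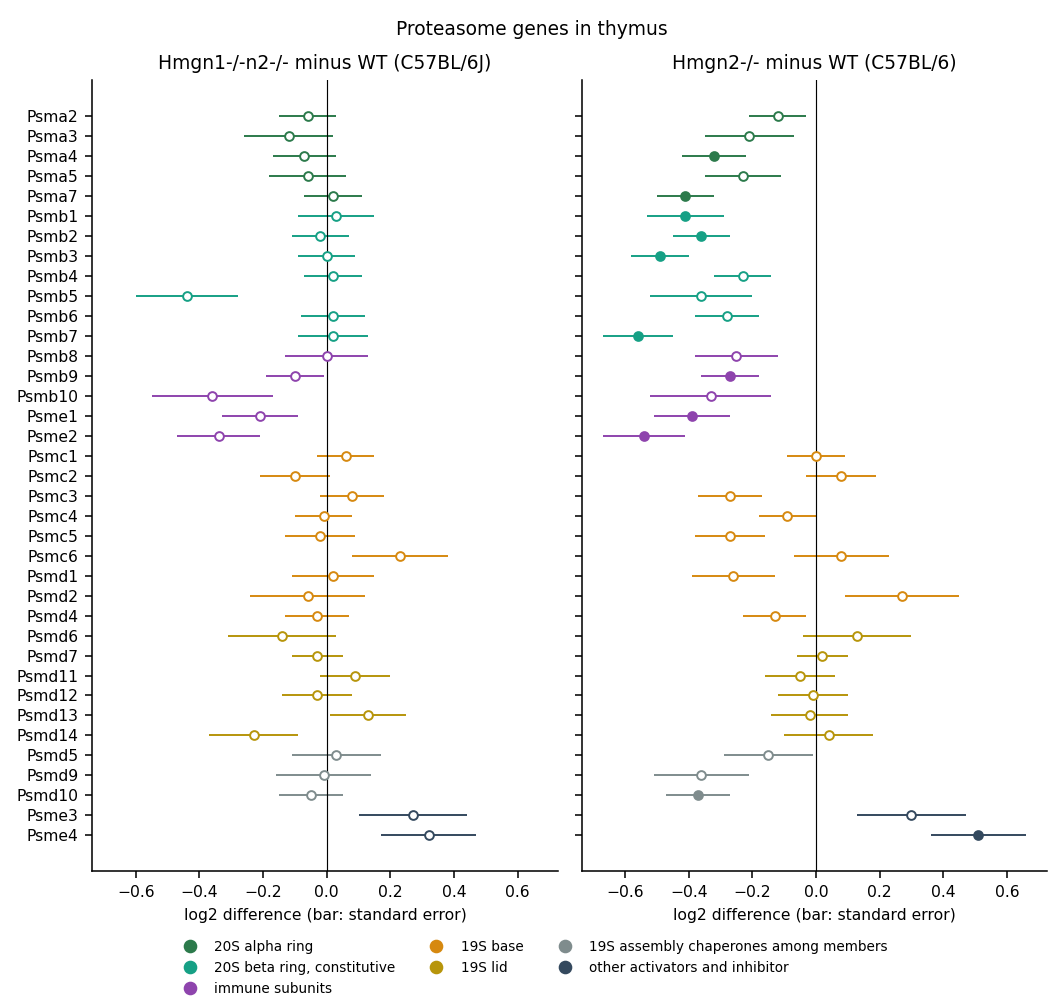
Log2 difference from the wild type (horizontal axis, with SE bars) of the 37 members tested in thymus, for Hmgn1-/-n2-/- mice (left) and Hmgn2-/- mice (right), coloured by subcomplex. Filled points passed the test. In Hmgn2-/- thymi the members run from -0.56 (Psmb7) to 0.51 (Psme4), and no member passed in the double knockout.

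Groups that did not overlap were common in this comparison. In 9 members every Hmgn2-/- thymus lay below every wild type (Psma7, Psmb1, Psmb2, Psmb3, Psmb4, Psmb5, Psmb7, Psmd10 and Psme2), where 8.28% of all genes did so. In 1 member, Psme4, every mutant lay above, where 7.03% of all genes did. The Hmgn2-/- arrays were not alike: the median deviation of the constitutive members from the wild-type mean was -0.03, -0.14, -0.36 and -0.25 in replicates 1 to 4, and that of the immune members -0.25, -0.11, -0.50 and -0.63. In the wild types these medians lay between -0.01 and 0.02 and between -0.18 and 0.10. Without replicate 3 of the mutants 4 members passed the test, and without wild-type replicate 2, 3 or 4 there were 6 each time. With only the 8 arrays of the comparison in the fit, 1 member passed.

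Raw signal was lower beside this result, and single marker genes of cell types passed the test, where 15.5% of all genes did. The summed markers of each cell type given here overlapped between the groups. The 95th percentile of raw signal was 806.8 to 933.4 in Hmgn2-/- thymi, against 1072 to 1257 in their wild types, without overlap. Of 8 T cell genes tested 2 rose, Themis by 0.55 and Dntt by 0.42, both genes of developing T cells (median of the 8 genes 0.15), and the summed level of the T cell markers was 36050 to 40200 intensity units against 35490 to 37440. Of 10 leukocyte genes Laptm5 rose (0.29) and Cd52 fell by 0.49, with sums of 30470 to 34920 against 28420 to 33180 and all 10 detected. Summed erythroid markers were 1275 to 5209, against 5068 to 16040. Summed macrophage markers were 2090 to 2937, against 2413 to 3380, and dendritic markers 10060 to 17410, against 13280 to 17190. Hepatocyte markers summed to 161.2 to 757.6, against 186.4 to 6847. B cell markers summed to 407.7 to 613.6, against 545.4 to 594.9, and Cd79a of B cells fell by 0.68, while thymic epithelial markers gave 6108 to 8406, against 6579 to 8461. Cd8a, Ms4a1, Cr2, Clec4f, Itgax, Flt3, Epb42, Alb and Tat were detected on no thymus array. The part of these differences in the proteasome result was not tested.

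Partners of the proteasome did not move as 1 block. Of 9 assembly and associated factors tested in Hmgn2-/- thymi, Psmg3, a chaperone of alpha ring assembly, fell by 0.60 ± 0.10 (limma, adjusted p = 0.00165), and Ube3c, a ligase that sits on the proteasome, rose by 0.55 (limma, adjusted p = 0.0213). The median of the 9 was -0.19. Vcp, the unfolding ATPase that feeds substrates to the proteasome, rose by 0.43 (limma, adjusted p = 0.00663), 1 of 5 ubiquitin and VCP genes. None of 4 genes of the NRF1 pathway and none of 10 peptide-loading genes passed, with medians of 0.02 and 0.01. Isg15, a ubiquitin-like interferon product, fell by 0.63 (limma, adjusted p = 0.0336), the only call among 13 interferon genes (median 0.05).

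No member passed the test in Hmgn1-/-n2-/- thymi against C57BL/6J wild types, where 0.232% of 9041 genes did. At an unadjusted p under 0.05 there were 1 constitutive and 1 immune member, among 813 genes (limma). The medians were -0.01 for constitutive and -0.21 for immune members. The beta subunits that fell in Hmgn2-/- thymi had differences near 0: Psmb3 0.00 ± 0.09, Psmb7 0.02 ± 0.11, Psmb1 0.03 ± 0.12 and Psmb2 -0.02 ± 0.09.

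Psme2 and Psmb10 did not overlap in that comparison. Psme2 was 7.54, 7.12, 7.09 and 7.58 in Hmgn1-/-n2-/- thymi, against 7.67, 7.69, 7.70 and 7.64 in wild types, a difference of -0.34 ± 0.13 (limma, adjusted p = 0.412). Psmb10 was 10.46, 10.56, 10.40 and 10.45, against 10.85, 10.77, 10.88 and 10.79 in wild types, a difference of -0.36 ± 0.19 (limma, adjusted p = 0.597). All arrays of the double knockout lay below all of their wild types in these 2 members, where 4.68% of all genes did so, and above in 1 member, Psme3, where 4.67% did. Psme4 had 0.32 ± 0.15 (limma, adjusted p = 0.561).

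The difference between the mutants was tested as the double-knockout change minus the Hmgn2-/- change, and no member passed, where 1.74% of all genes did. Of the members 7 had an unadjusted p under 0.05, all constitutive, among 1537 genes (limma). Psmb3 came nearest at 0.49 ± 0.12 (limma, adjusted p = 0.0503), then Psmb7 at 0.58 ± 0.16 (limma, adjusted p = 0.0681) and Psma7 at 0.43 ± 0.13 (limma, adjusted p = 0.0935). Under 11 other settings Psmb3 passed in 9 and Psmb7 in 5, with up to 3 members in 1 setting. Psme2 (0.20), Psme1 (0.18), Psmb9 (0.17) and Psme4 (-0.20) differed less. In thymus the 2 wild types did not differ in any member (0.254% of all genes did, limma), with 0 members at an unadjusted p under 0.05.

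Psmb5 had the smallest p-value of the members in the double knockout in thymus and was low in 3 organs. In thymus it was 8.37, 8.90, 8.59 and 8.04 in Hmgn1-/-n2-/- mice, against 8.67, 9.05, 9.00 and 8.91 in wild types (-0.44 ± 0.16; limma, adjusted p = 0.39). In liver it was 8.14, 8.71, 8.41 and 7.65, against 8.55, 8.93, 8.72 and 8.76 (-0.51 ± 0.18; limma, adjusted p = 0.387). In brain it was 8.01, 8.49, 8.30 and 8.30, against 8.66, 8.85, 8.60 and 8.59 (-0.40 ± 0.19; limma, adjusted p = 0.762). None of these passed the test, and only the brain groups were apart. In spleen the sign was the other: 8.77, 9.07, 8.89 and 8.40, against 8.79, 8.77, 7.61 and 8.19 (0.44 ± 0.22; limma, adjusted p = 0.492). Over the 4 organs together the mean difference was -0.20 ± 0.10 (limma, adjusted p = 0.688).

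In spleen no member passed in either mutant, and neither did any of the 9237 genes tested (0% in each). Hmgn2-/- spleens had medians of 0.02 for constitutive and -0.02 for immune members against C57BL/6 wild types, with 0 members at an unadjusted p under 0.05 and 268 genes (limma). Psmb10 had 0.18 ± 0.14, Psmd13 -0.16 ± 0.15 and Psmd4 -0.13 ± 0.11 (limma, adjusted p = 1 each).

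Hmgn1-/-n2-/- spleens had positive medians, 0.15 for constitutive and 0.30 for immune members, with 5 constitutive and 2 immune members at an unadjusted p under 0.05, among 987 genes (limma). Psme2 was 8.07, 8.16, 7.92 and 8.20, against 7.91, 7.57, 6.61 and 7.89 in C57BL/6J wild types (0.59 ± 0.22; limma, adjusted p = 0.407). Psmb3 was 11.10, 11.04, 11.20 and 11.26, against 11.01, 10.97, 9.78 and 10.78 (0.52 ± 0.20; limma, adjusted p = 0.424). Psmb2 was 10.92, 10.97, 11.03 and 10.89, against 10.87, 10.59, 9.98 and 10.83 (0.39 ± 0.16; limma, adjusted p = 0.434). In each of these, wild-type replicate 3 was far below the others.

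That wild-type spleen stood apart across the members. Its median deviation was -0.35 for constitutive and -0.64 for immune members, while the other 3 wild types lay at 0.10 to 0.14 and 0.07 to 0.29, and the Hmgn1-/-n2-/- spleens at 0.07 to 0.17 and 0.20 to 0.38. Without the spleen arrays that stood apart, the medians of the comparison were 0.04 and 0.07, and the differences of Psme2, Psmb3 and Psmb2 were 0.30, 0.23 and 0.19. Without the 2 libraries whose Hmgn2 level went against the label, the medians were 0.16 and 0.34, and the 3 differences 0.73, 0.58 and 0.49 for Psme2, Psmb3 and Psmb2. No member passed the test with either set of arrays left out. All 4 double-knockout spleens lay above all wild types for Psmb2, Psmb3, Psmc2 and Psme2, where 4.82% of all genes did.

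**Figure D4:**
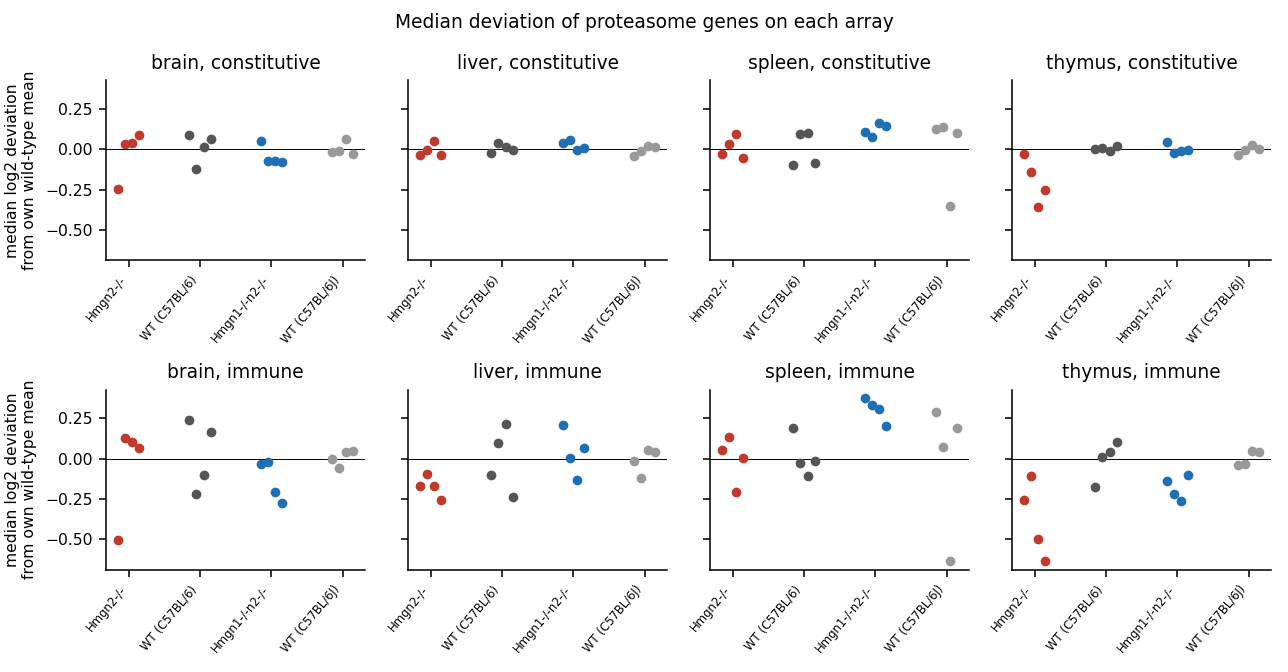
Median deviation of the members from the mean of their own wild-type group (vertical axis, log2), for each array, by organ and group; constitutive members are in the top row and immune members in the bottom row. Points are arrays. Replicate 3 of the C57BL/6J wild-type spleens lies at -0.35 and -0.64, and replicate 4 of the Hmgn2-/- thymi at -0.25 and -0.63.

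In liver no member passed the test in either mutant. Of 7647 genes 0.0131% passed in Hmgn2-/- livers and 0.314% in Hmgn1-/-n2-/- livers (limma). In Hmgn2-/- livers 1 member, Psme1, had an unadjusted p under 0.05, among 307 genes (limma). Psme1 was 9.92, 10.07, 9.89 and 9.56, against 10.12, 10.19, 10.05 and 10.01 in wild types, where mutant replicate 2 lay inside the wild-type range (-0.23 ± 0.10; limma, adjusted p = 1). Every immune member had a negative difference there, from -0.14 (Psmb10) to -0.32 ± 0.20 (Psmb9), and none passed. In Hmgn1-/-n2-/- livers the immune members were mixed, from -0.17 (Psmb10) to 0.22 (Psme2). There Psmb5, given above, was the 1 constitutive member at an unadjusted p under 0.05, among 703 genes (limma). Psmd14 had 0.25 ± 0.13 and Psme4 0.18 ± 0.11 (limma, adjusted p = 0.598 and 0.656).

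In brain no member of 35 tested passed in either mutant, where 0.0218% of 9157 genes passed in Hmgn2-/- and 0.142% in Hmgn1-/-n2-/- brains (limma). At an unadjusted p under 0.05 there was no member in Hmgn2-/- brains, among 259 genes, and 1, Psmb5, in Hmgn1-/-n2-/- brains, among 596 (limma). Hmgn2-/- brains had medians of -0.02 for constitutive and -0.05 for immune members. The double knockout had -0.05 and -0.14, with Psmb9 at -0.22 ± 0.15 (limma, adjusted p = 0.914) and Psma3 at -0.22 ± 0.11 (limma, adjusted p = 0.778). In 1 member, Psmb5, all double-knockout brains lay below all wild types, where 2.88% of all genes did. Psmb8 was detected on 2 of 16 brain arrays, 1 of each mutant, and was not tested there. Replicate 1 of the Hmgn2-/- brains had medians of -0.24 and -0.50, while the other 3 lay at 0.03 to 0.09 and 0.07 to 0.13.

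**Figure D5:**
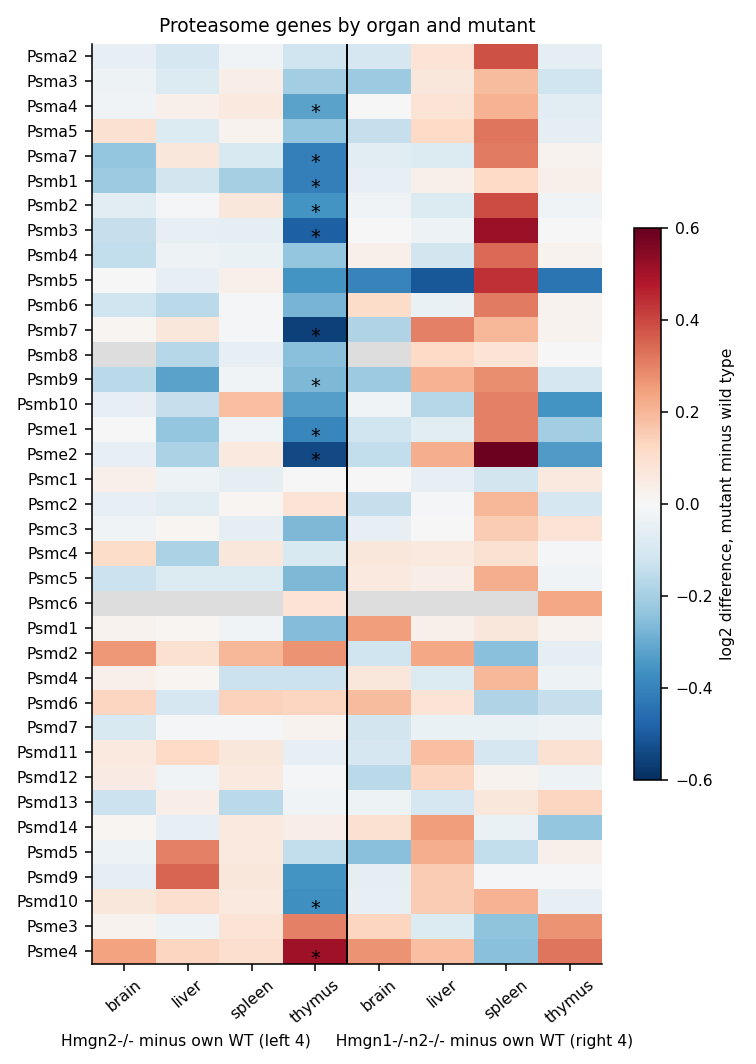
Log2 difference from the wild type (colour, from -0.6 to 0.6) for each member (rows) in the 8 comparisons of a mutant with its wild type (columns). A star marks a member past the test and grey one that was not tested. All 11 stars are in the column of Hmgn2-/- thymus.

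The difference between the mutants passed in no member in spleen, liver or brain either (0%, 0.0262% and 0.0109% of all genes, limma). Averaged over the 4 organs, no member passed in Hmgn2-/- mice, where 0.0704% of 11366 genes did, or in Hmgn1-/-n2-/- mice, where 0.414% did (limma). In Hmgn2-/- mice 6 constitutive and 1 immune member had an unadjusted p under 0.05, among 1243 genes (limma). Among them were Psmb1 at -0.25, Psma7 at -0.19, Psmb9 at -0.19 and Psme4 at 0.26 (limma, adjusted p = 0.423, 0.388, 0.406 and 0.368). Whether the thymus difference itself departs from those of the other organs was not tested.

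The 2 sets of wild types, which differ in strain label, were also set against each other, C57BL/6J minus C57BL/6. No member passed in brain, liver or spleen, where 1.54%, 1.35% and 0.0325% of all genes did, and 0.994% in liver and 0.0217% in spleen were lower (limma). In brain 6 constitutive and 3 immune members had an unadjusted p under 0.05, among 1578 genes (limma), led by Psmd6 of the lid at -0.47 (limma, adjusted p = 0.0911). All 4 immune members tested there had positive differences, from 0.14 (Psme1) to 0.43 (Psme2), with a smallest adjusted p of 0.189 (limma). Their median was 0.35, against 0.05 for the constitutive members and 0.033 over all genes. In liver there were 2, Psmd6 at -0.51 and Psmd14 at -0.43 (limma, adjusted p = 0.189 and 0.123), among 1198 genes. In spleen there were 4, with Psmb3 at -0.60 and Psmd2 at 0.50 (limma, adjusted p = 0.173 and 0.186), among 1722 genes. Without C57BL/6J replicate 3 these were -0.32 for Psmb3 and 0.33 for Psmd2.

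A few members could be read poorly or not at all. Psma1 and Psma6, both of the alpha ring, were detected on no array of any organ. Among the fits within an organ, Psmc6, an ATPase of the base, passed the filter in thymus only, where 4 of 16 arrays detected it. It was also tested in the fit over all organs. Of the members with more than 1 probe, Psma3, Psmb2, Psmd11 and Psmd5 each had 1 probe that no array detected, beside probes that were detected.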

How the data were processed

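Total RNA of 64 mouse organs (Trizol, then RNeasy columns) was amplified to biotin-labelled cRNA and hybridized to Illumina bead arrays, per the labels' protocols. The authors deposited a non-normalized table of probe intensity and detection p-value per array, per the file headers; it was exported with GenomeStudio 2011.1, per the submitters' processing notes. Their table of normalized intensities was deposited too, with its method not given in the sources used here, and served as an alternative. For that use, values under 1.78, the 10th percentile of its positive values, were raised to 1.78 and log2 was taken. Here intensities were background-corrected from the detection p-values and quantile-normalized by neqc (limma 3.58.1, R 4.3.3, statmod 1.5.0; offset 16), within each organ and, for organ comparisons, over all 64 arrays. Median scaling, tried as an alternative, replaced the quantile step. It centred each array on the median of the probes detected on all arrays scaled together. Genes with a detection p under 0.01 on at least 4 arrays of the fit were tested, through the probe with the highest mean. Fits held 4 group means per organ (16 arrays). The pooled fit had the mouse, as taken from the titles, as a random block, and the correlation between arrays of 1 mouse was 0.021. P-values were adjusted by Benjamini-Hochberg over all genes, at 0.05. Levels below background are bounds. Fold bounds take the mean of the bright organ over that of the dim organ, set in each array to at least its lowest detected signal. The procedure was tested on simulated data. Of 100 genes given a log2 change of 0.5 in the Hmgn2-/- group, 44 were recovered in thymus and 26 in spleen. In liver 50 were, and in brain 48. For a change of 1 the numbers were 96, 81, 93 and 91 in that order. A change of 0.5 can thus be missed. Members and lists were chosen with earlier results of these data known. Genes named are those past the test, the 3 with the smallest p where none passed, the immune and catalytic subunits, and the widest constitutive organ differences. The number of arrays limits the precision. Shared replicate numbers did not pair the samples: in no comparison did all 4 same-numbered pairs correlate above 0.1.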

Additional observations from a re-analysis of the deposited data

Results flagged for a closer look

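In 5 of 138 groups of 4 arrays, 1 array lay far from the other 3 for an immune or catalytic subunit or for a subunit past the test, by Dixon's gap criterion. Chance alone gives about 1 in 20. 3 of them were the same library, replicate 3 of the C57BL/6J wild-type spleens: Psmb6 was 9.39 there against 10.46 to 10.50 in the other 3, Psmb9 10.36 against 11.14 to 11.28, and Psme1 10.48 against 11.65 to 11.86. Psmb7 was 10.06 in replicate 1 of the Hmgn2-/- brains, against 10.59 to 10.65 in the others. Psmb2 was 11.00 in replicate 2 of the C57BL/6 wild-type thymi, against 11.17 to 11.20 in the others.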

How the results depend on the processing

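The count of members past the test in Hmgn2-/- thymi was 11, between 8 and 15 under 10 other settings, 1 with only the 8 arrays of the comparison in the fit, and 4 with the replicate number as a block (820 genes in all, against 1405). It ran from 4 to 16 without 1 array. Psmb7 passed the test in all of these fits. The double-knockout change minus the Hmgn2-/- change in thymus gave 0 members, 3 with no background subtraction, 2 each with an offset of 50, median scaling, array weights, or a trended robust prior, and 1 each with the authors' table, normalization over 64 arrays, no detection filter, or detection on all 16 arrays (0 to 2 without 1 array). Array weights gave 1 member in Hmgn1-/-n2-/- thymi. Between the wild types, brain gave 0 members, 3 with median scaling and 1 with array weights (0 to 1 without 1 array), and liver 0 members but 2 each with every probe tested and with array weights. Median scaling over 64 arrays turned Psmb7 to 0.26 in liver against brain, -0.02 in thymus against brain and -0.28 in thymus against liver, Psme1 to -0.14 and Psmb6 to -0.90 in thymus against liver. That scaling moved all genes: relative to their median Psmb7 stood at 0.19, 0.26 and 0.06 in those pairs, Psme1 at 0.20 and Psmb6 at -0.56, so Psmb7 in thymus and Psme1 kept their direction. With 1 replicate number left out, Psmb5 in thymus against brain ran from -0.10 to 0.13, Psmb6 in spleen against brain from -0.22 to 0.02, and Psme2 in thymus against spleen from -0.05 to 0.24. The causes were not tested. The pairing by replicate number changed no other count of members past the test by over 1.5 times. In all, 428 recomputed counts stayed within 1.5 times their value and 24 did not.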
